A study of Mus musculus with 8 samples.

Results

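Lipid peroxidation in Tregs, and its control by glutathione, thioredoxin and iron handling, was examined through 10 genes: Gpx4, Gpx1, Slc7a11, Txnrd1, Acsl4, Lpcat3, Hmox1, Fth1, Ftl1 and Tfrc. They were taken by their symbols from a table of 28239 gene symbols, and all 10 were present and passed the filter on low values that left 12700 genes for testing. The table came from naive splenic CD4+ T cells cultured for 2 days with IL-2, TGF-β and CD3/CD28 beads towards Tregs. The 2 groups were wild type mice (WT, n = 4) and Alox15-/- mice (KO, n = 4), both labelled as C57BL/6 in background, and the study's methods give 10 to 12 weeks of age and both sexes for its mice. Alox15 encodes 15-lipoxygenase, an enzyme that adds oxygen to polyunsaturated fatty acids. The methods name one supplier for the C57/Black6 mice and another for the Alox15-/- mice, so genotype and supplier cannot be told apart.

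Ferroptosis is a form of cell death in which iron drives the peroxidation of polyunsaturated phospholipids. Acsl4 and Lpcat3 place those fatty acids into phospholipids, where lipoxygenases and free iron can oxidise them. Slc7a11 imports cystine for glutathione synthesis, and Gpx4 spends glutathione to reduce the lipid hydroperoxides. Iron enters through the transferrin receptor Tfrc, is released from heme by Hmox1 and is stored in ferritin, which is built from heavy (Fth1) and light (Ftl1) chains. Activated T cells take up iron, and Gpx4 is known to protect T cells, Tregs included, from this form of death.

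Levels are given as CPM, counts relative to the total of a library, scaled by TMM, a method that aligns libraries on the bulk of their genes, and fold changes as log2 values of KO relative to WT with a standard error (SE) from edgeR. MACE-seq counts the 3′ ends of transcripts, so a count is not scaled by transcript length and the level of one gene is not read against that of another. A ratio of genes below is compared only between libraries. The libraries held 3723151 to 6952596 counts in KO and 4810125 to 9538962 in WT, and 1 read was worth 0.1003 to 0.270 CPM. Alox15 itself went against the group labels: it stood at 70.2, 68.8, 63.4 and 65.0 CPM in KO libraries 1 to 4 and at 1.87, 2.55, 7.73 and 8.98 CPM in WT libraries 1 to 4, a log2 fold change of 3.65 (SE 0.304, edgeR adjusted p = 1.08e-05). Counts at the 3′ end need not cover the deleted part of a gene, and whether the labels of the groups are exchanged was not tested. KO below means the libraries labelled Alox15-/-, and an exchange of labels would turn every sign given.

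Markers of other blood cells also separated the groups. Summed erythroid markers were 915 to 3505 CPM in KO and 72.8 to 140.1 CPM in WT, with 5 of the 6 tested past the threshold, and summed myeloid markers were 54.5 to 368 CPM in KO and 16.4 to 25.2 CPM in WT, with 6 of 8 past it. Mast cell and basophil markers (148 to 378 against 61.5 to 87.3 CPM), eosinophil markers (21.3 to 73.7 against 1.25 to 10.4 CPM) and NK and gamma-delta T cell markers (83.4 to 155 against 30.9 to 48.5 CPM) did the same, with 8 of 10, 2 of 2 and 4 of 5 tested markers past the threshold. In the last list the 4 called were T cell receptor genes (Trdc, Tcrg-C1, Tcrg-C2 and Tcrg-C4), and the groups overlapped for the NK markers Ncr1, Klrb1c, Klre1 and Eomes. Summed T cell and Treg markers were 2563 to 2736 CPM in KO and 2746 to 2884 CPM in WT, and none of the 9 passed the threshold. Foxp3, the defining factor of Tregs, was at 93.0 ± 17.02 CPM in KO and 124 ± 47.2 CPM in WT (SD, n = 4, edgeR adjusted p = 0.655). B cell markers were 213 to 313 CPM in KO and 209 to 306 CPM in WT, and 1 of the 4 tested was called, lower in KO. By a two-sided exact permutation test, p was 0.0286 for each of these lists but the B cell one (adjusted p = 0.0333 over 7 lists), where it was 1, and 0.0286 is the smallest p that 4 against 4 allows. The lists were chosen with earlier results of these data known, so these p-values do not carry their nominal meaning. No marker was at 0 in every library. In such bulk samples fewer cells of a type and less RNA per cell cannot be told apart.

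None of the 10 genes passed the threshold of 0.05 on the adjusted p of edgeR's quasi-likelihood test, against 1.24% of all genes tested (1.05% higher and 0.197% lower in KO). None was below 0.05 before adjustment either, where 7.84% of all genes were (4.46% higher and 3.38% lower in KO). DESeq2 and limma-voom likewise called 0 of the 10, with 0 at an unadjusted p under 0.05. The KO and WT libraries overlapped for all 10, while they did not overlap for 5.25% of all genes (KO above WT for 2.75% and below for 2.5%). The log2 fold change was above 0 for 8 of the 10 (5 without KO library 2) and for 48.2% of all genes tested. The median was 0.093 over the 10 and -0.0073 over all genes tested, and the values ran from -0.13 for Tfrc to 0.35 for Hmox1.

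**Figure D1:**
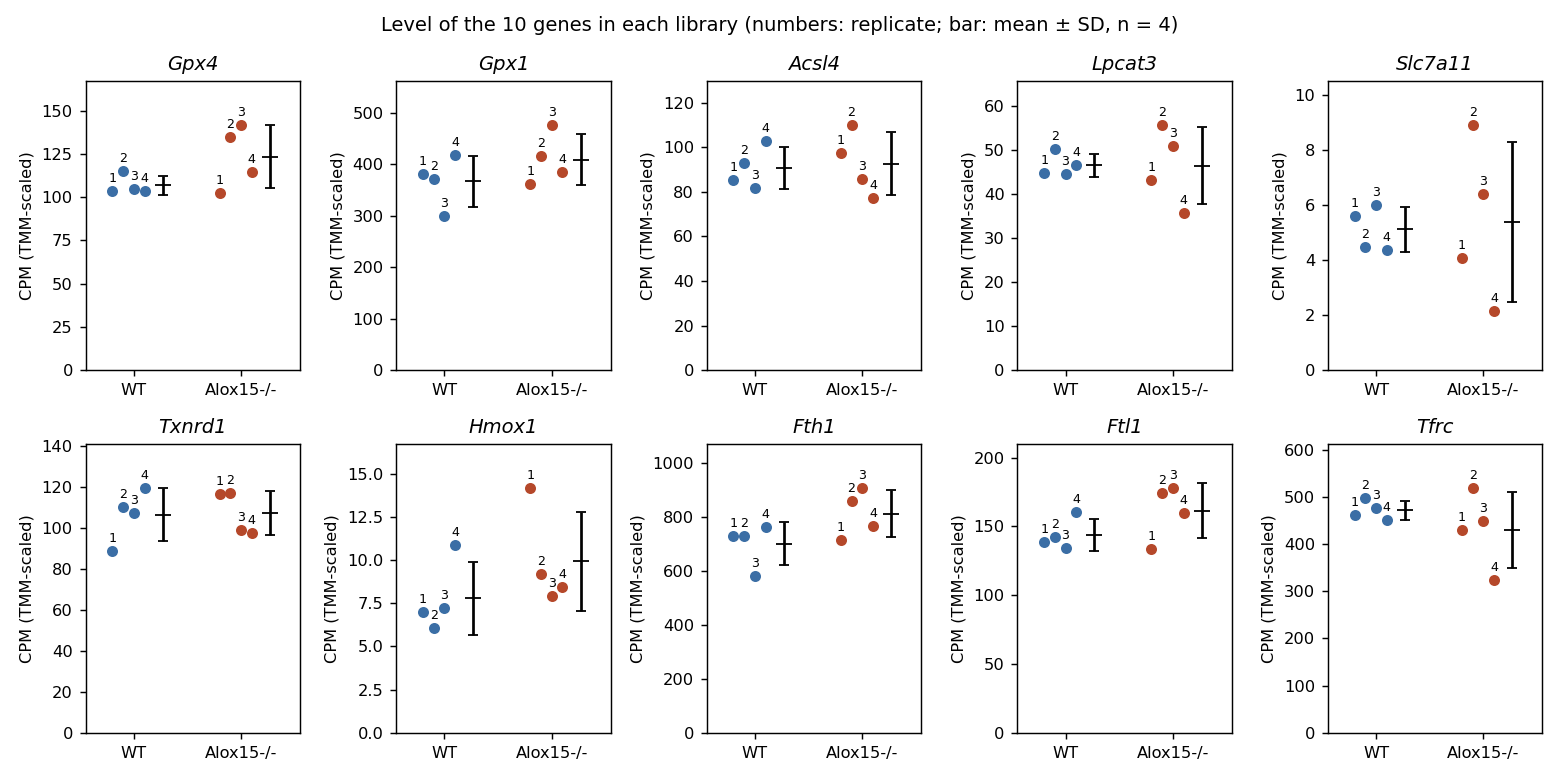
Level of each of the 10 genes in every library, in TMM-scaled CPM on linear axes that start at 0 (blue points, libraries labelled WT; red points, libraries labelled Alox15-/-; the number is the replicate; bars, mean ± SD, n = 4). The groups overlap in every panel, and Gpx4, Fth1 and Ftl1 are highest in KO libraries 2 and 3.

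Gpx4 and Gpx1 are glutathione peroxidases and Txnrd1 is the cytosolic thioredoxin reductase. All 3 are selenoproteins: the ribosome reads a TGA codon, which otherwise ends translation, as selenocysteine, the residue at their active site. The 3 codons annotated by GENCODE (release M21, build GRCm38) are shown because they are what these genes share beyond the redox reaction, in the sense strand of the transcript with 12 flanking bases on each side where the coding sequence reaches that far and TGA in capitals.
Gpx4: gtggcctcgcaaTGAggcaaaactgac
Gpx1: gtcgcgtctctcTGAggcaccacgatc
Txnrd1: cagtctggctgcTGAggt
The Gpx4 codon is number 129 of 253 in the transcript used, and the stretch shown lies in exon 3 of 7 at chr10:80054725-80054751. In Gpx1 the codon is number 47 of 201, and the stretch lies in exon 1 of 2 at chr9:108339439-108339465. In Txnrd1 the codon is number 498 of 499, next to the end of the protein, and the stretch lies in exon 14 of 14 at chr10:82896025-82896042. All 3 genes lie on the plus strand. GENCODE annotates such a codon in 24 genes, a number equal to 0.110% of the 21877 protein-coding genes with a transcript used here.

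Gpx4 (ENSMUSG00000075706.10, chr10:80047166-80056439) was measured at 103, 135, 142 and 114 CPM in KO libraries 1 to 4 and at 104, 115, 105 and 104 CPM in WT libraries 1 to 4. KO libraries 2 and 3 were above every WT library, while KO library 1 lay below them all. The means were 123 ± 18.1 and 107 ± 5.62 CPM (SD, n = 4), a log2 fold change of 0.21 (SE 0.113, 95% interval -0.03 to 0.45, edgeR adjusted p = 0.714). The interval runs from a level 2.20% lower to one 36.5% higher in KO. Without KO libraries 2 and 3, a pair chosen after the data were seen here and below, the log2 fold change was 0.03 (-0.24 to 0.30).

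Gpx1 (ENSMUSG00000063856.7, chr9:108338903-108340343) reduces hydrogen peroxide and soluble hydroperoxides in the cytosol. Its level was 361, 416, 477 and 385 CPM in KO libraries 1 to 4 and 381, 371, 299.8 and 418 CPM in WT libraries 1 to 4. KO library 3 stood above the WT range and no KO library below it. The log2 fold change was 0.16 (SE 0.117, 95% interval -0.09 to 0.41, edgeR adjusted p = 0.810). It was 0.083 without KO library 3, 0.076 without WT library 3 and 0.028 without KO libraries 2 and 3. Txnrd1 (chr10:82833951-82897712) was at 117, 117, 99.0 and 97.6 CPM in KO and at 88.9, 110.1, 107 and 120 CPM in WT. All 4 KO libraries fell inside the WT range, and its log2 fold change was 0.01 (SE 0.114, -0.23 to 0.25, edgeR adjusted p = 0.991). The sign of that value turned in 5 of 21 alternative analyses.

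Slc7a11 (chr3:49892526-50443614, minus strand), the transporter subunit of the cystine and glutamate exchanger, was the least counted of the 10. Its counts were 17, 33, 34 and 15 in KO libraries 1 to 4 and 36, 28, 60 and 21 in WT libraries 1 to 4. These correspond to 4.08, 8.91, 6.40 and 2.15 CPM in KO and 5.61, 4.46, 6.02 and 4.38 CPM in WT. The KO libraries surrounded the WT ones, with 2 above and 2 below them all, and the coefficient of variation was 54.3% in KO and 16.1% in WT. The group means, 5.38 ± 2.92 and 5.12 ± 0.823 CPM (SD, n = 4), gave a log2 fold change of 0.00019 (SE 0.344) whose 95% interval, -0.73 to 0.73, admits a level 39.8% lower or 66.2% higher in KO. Single libraries set its sign: it was -0.33 without KO library 2 and 0.31 without KO library 4, and -0.79 without KO libraries 2 and 3. No difference was detectable in these libraries (edgeR adjusted p = 0.99997). Slc3a2, its partner chain, stood at 287 ± 19.2 CPM in KO and 292 ± 3.42 CPM in WT.

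The glutathione genes around these members were read from the same fit. Of 32 listed genes of glutathione synthesis, recycling and use, 23 were tested, 13 with a log2 fold change above 0 and 10 below, and 0 passed the threshold while 2, Glrx and Gstm1, had an unadjusted p under 0.05 by edgeR (7.84% of all genes). Glrx, a glutaredoxin, was at 15.05 to 18.9 CPM in KO and 8.35 to 12.9 CPM in WT, without overlap, a log2 fold change of 0.66 (SE 0.176, adjusted p = 0.123). Gclc and Gclm, the catalytic and modifier subunits of the enzyme that starts glutathione synthesis, had log2 fold changes of 0.29 (-0.06 to 0.65) and 0.02 (-0.18 to 0.22), and Gsr, which recycles oxidised glutathione, 0.13 (-0.17 to 0.43). The highest value in the list was that of Gstm1, a glutathione S-transferase, at 1.08 (SE 0.502, adjusted p = 0.633): KO libraries 2 and 3 held 11.1 and 8.65 CPM while KO libraries 1 and 4 held 2.16 and 1.86 CPM, inside or just below the WT range of 1.91 to 4.59 CPM, and without KO libraries 2 and 3 the value turned to -0.43. The lowest was Chac2, which degrades glutathione, at -0.51 (4.97 ± 1.08 against 7.29 ± 1.57 CPM, SD, n = 4, edgeR adjusted p = 0.664). In the list of thioredoxins, peroxiredoxins and related enzymes 21 of 22 were tested, with 11 above 0, 10 below and none past the threshold. Its highest value was that of Txnip, the inhibitor of thioredoxin, at 0.66 (51.2 ± 7.67 against 32.1 ± 10.01 CPM, edgeR adjusted p = 0.189), which passed the threshold by DESeq2 (adjusted p = 0.0486), without the filter on low values and without WT library 3. Its lowest was Msrb2 at -0.34 (adjusted p = 0.849). Of the NADPH-supplying enzymes 6 of 7 were tested and none passed, with values from -0.08 for Pgd to 0.10 for Taldo1.

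**Figure D2:**
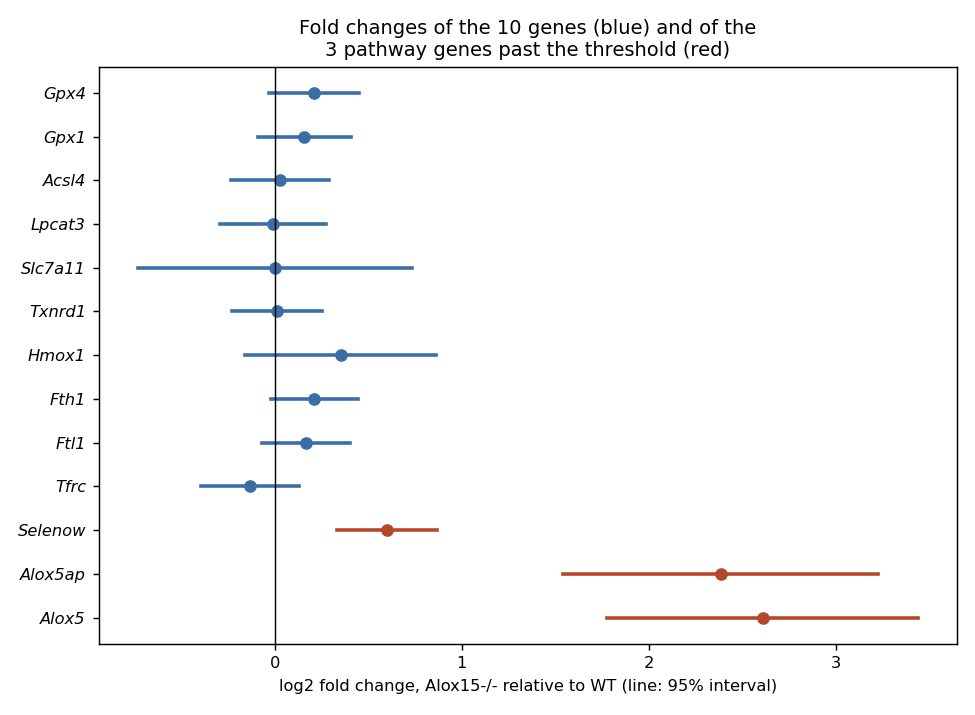
Log2 fold change of KO relative to WT with its 95% interval (line) for the 10 genes (blue) and for the 3 genes of the surrounding pathway lists past the threshold (red). All 10 blue intervals cross 0, the widest being that of Slc7a11 at -0.73 to 0.73.

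The group means of Acsl4 and Lpcat3, which load polyunsaturated fatty acids into membranes, were close to each other. Acsl4 (chrX:142317993-142390535, minus strand), an acyl-CoA synthetase with a preference for arachidonic and adrenic acid, was at 97.6, 109.9, 85.6 and 77.3 CPM in KO libraries 1 to 4 and at 85.5, 92.7, 81.7 and 103 CPM in WT libraries 1 to 4. KO library 2 lay above the WT range and KO library 4 below it. Its log2 fold change was 0.03 (SE 0.122, 95% interval -0.23 to 0.29, edgeR adjusted p = 0.978), and it was -0.06 without KO library 2 and -0.02 without WT library 3. Lpcat3 (chr6:124663027-124704418), the acyltransferase that moves arachidonate into phospholipids, was at 43.2, 55.6, 51.0 and 35.8 CPM in KO and at 44.8, 50.2, 44.4 and 46.6 CPM in WT. Again the KO libraries lay on both sides of the WT ones, with a coefficient of variation of 18.8% against 5.67%. Its log2 fold change was -0.01 (SE 0.134, -0.29 to 0.27, edgeR adjusted p = 0.995), and it turned to 0.10 without KO library 4. The 3′ end of Lpcat3 overlaps that of Emg1 on the opposite strand, and whether the counting used strand is not given in the sources used here.

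Among 28 further genes of polyunsaturated lipid metabolism 21 were tested, 8 above 0 and 13 below, with a median of -0.053, and 2 passed the threshold, both higher in KO, where 1.05% of all genes were. These were Alox5, the 5-lipoxygenase of leukotriene synthesis, and Alox5ap, the membrane protein that presents arachidonate to it. Alox5 ranged from 8.44 to 26.2 CPM in KO and from 1.12 to 3.97 CPM in WT, a log2 fold change of 2.61 (SE 0.390, edgeR adjusted p = 0.00129). Alox5ap ranged from 6.01 to 17.01 CPM in KO and from 0.936 to 3.11 CPM in WT, at 2.38 (SE 0.394, edgeR adjusted p = 0.00298). The groups did not overlap for either gene, and both were called in every alternative in which they were tested. Both genes are known from myeloid cells and mast cells, whose summed markers were 8.60 and 3.36 times as high in KO as in WT by the means of the groups; their part in this result was not tested. The lowest value in the list was that of Scd1, a fatty acid desaturase, at -0.54 (76.1 ± 54.1 against 108 ± 65.6 CPM, SD, n = 4, edgeR adjusted p = 0.842). It ran from -1.47 without KO libraries 2 and 3 to -0.16 without WT library 3, and passed the threshold only when no filter on low values was used (edgeR adjusted p = 0.00055). The third gene of the list with an unadjusted p under 0.05 was Lpcat4, a relative of Lpcat3, at 14.6 ± 2.41 CPM in KO and 11.02 ± 1.25 CPM in WT, without overlap (log2 fold change 0.39, SE 0.171, edgeR adjusted p = 0.600).

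Iron handling is set largely after transcription. Iron regulatory proteins bind a hairpin, the iron responsive element, which blocks translation from a 5′ UTR and protects the transcript from decay in a 3′ UTR, so that low iron favours the receptor over ferritin. A search of 1 transcript per gene for this hairpin, a C bulge, 5 paired bases on either side and the loop CAGTGN, found it in Fth1, Ftl1 and Tfrc and in none of the other 7 genes. They are shown since the genes of iron uptake and storage share them; capitals mark the loop.
Fth1, 5′ UTR: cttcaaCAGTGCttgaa
Ftl1, 5′ UTR: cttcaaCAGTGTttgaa
Tfrc, 3′ UTR, site 1: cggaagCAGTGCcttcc
Tfrc, 3′ UTR, site 2: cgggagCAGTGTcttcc
Tfrc, 3′ UTR, site 3: cggagaCAGTGAtctcc
Tfrc, 3′ UTR, site 4: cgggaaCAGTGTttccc
The stem of the ferritin sites is the same in both chains. In GRCm38 the Fth1 site is in exon 1 of 4 at chr19:9982738-9982754 (plus strand) and the Ftl1 site in exon 1 of 4 at chr7:45459785-45459801 (minus strand). The 4 Tfrc sites all lie in exon 19 of 19 on the plus strand, at chr16:32631225-32631241, chr16:32631604-32631620, chr16:32631669-32631685 and chr16:32631716-32631732. Of all protein-coding genes searched, 248 of 21877 (1.13%) held a match, which is a description of letters and not evidence of binding.

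Fth1 (ENSMUSG00000024661.7, chr19:9980598-9985098) was at 714, 859, 907 and 765 CPM in KO libraries 1 to 4 and at 729, 729.5, 583 and 762 CPM in WT libraries 1 to 4. KO libraries 2, 3 and 4 were above every WT library, and KO library 1 was within their range. The means were 811 ± 87.8 and 701 ± 80.4 CPM (SD, n = 4), a log2 fold change of 0.21 (SE 0.110, 95% interval -0.02 to 0.45, edgeR adjusted p = 0.696). Before adjustment its p of 0.0733 in the edgeR fit was the smallest of the 10, and the exact permutation test of its levels gave p = 0.171. Without KO libraries 2 and 3 the value was 0.08 (-0.21 to 0.38).

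Ftl1 (chr7:45457944-45459884, minus strand) was at 134, 174, 178 and 159 CPM in KO libraries 1 to 4 and at 138, 142, 134 and 160.3 CPM in WT libraries 1 to 4. The KO libraries stood in the same order as for Fth1, with library 3 the highest, and library 1 was the lowest of all 8. Its log2 fold change was 0.17 (SE 0.109, -0.07 to 0.40, edgeR adjusted p = 0.774), and 0.04 without KO libraries 2 and 3. Reads of Ftl1 may be split with its copies: Ftl1-ps1, 99.6% identical over the aligned part, was itself at 182.8 ± 19.9 CPM in KO and 165.6 ± 18.8 CPM in WT. With the counts of all listed copies added the log2 fold change was 0.16 for Ftl1 (-0.07 to 0.38, edgeR adjusted p = 0.781) and 0.21 for Fth1 (adjusted p = 0.695), so the level of Ftl1 is uncertain but its fold change moved little.

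Tfrc (chr16:32608920-32632794) was, beside Lpcat3, the gene of the 10 with a value below 0. It stood at 430.1, 519, 448 and 325 CPM in KO libraries 1 to 4 and at 461, 497, 476 and 451 CPM in WT libraries 1 to 4. KO libraries 1, 3 and 4 were below every WT library and KO library 2 was above them all. The log2 fold change was -0.13 (SE 0.122, 95% interval -0.39 to 0.13, edgeR adjusted p = 0.849), and the coefficient of variation was 18.7% in KO against 4.27% in WT. Single libraries moved it: it was -0.017 without KO library 4, and -0.32 (-0.61 to -0.03, edgeR adjusted p = 0.772) without KO libraries 2 and 3. The ratio of Tfrc to Fth1 within a library was 0.602, 0.604, 0.494 and 0.424 in KO and 0.633, 0.682, 0.817 and 0.592 in WT. WT library 4 lay below the 2 highest KO libraries, so the groups overlapped in this ratio as well.

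Hmox1 (chr8:75093621-75100589), heme oxygenase 1, had the highest fold change of the 10 and low counts. These were 59, 34, 42 and 59 in KO libraries 1 to 4 and 45, 38, 72 and 52 in WT libraries 1 to 4, or 14.2, 9.18, 7.90 and 8.44 CPM in KO and 7.02, 6.05, 7.22 and 10.9 CPM in WT. KO library 1 alone was above every WT library, and the other 3 lay between WT libraries 3 and 4. The log2 fold change of 0.35 (SE 0.239) had an interval of -0.16 to 0.86 (edgeR adjusted p = 0.782), which spans a level 10.3% lower to 81.7% higher in KO. It was 0.14 without KO library 1.

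Of 36 further genes of iron and heme metabolism 27 were tested, 13 above 0 and 14 below, with a median of -0.0046, and edgeR called 0 of them while 2 (7.41%, against 7.84% of all genes) had an unadjusted p under 0.05. The same 2 were those whose groups did not overlap, where 5.25% of all genes did not, so both shares were near those of all genes. Blvrb, a biliverdin reductase, had the highest value, 0.85 (7.55 ± 2.10 against 4.10 ± 0.519 CPM, SD, n = 4, edgeR adjusted p = 0.205). Blvra, the other biliverdin reductase listed, had 0.02 (-0.23 to 0.27). Blvrb is also known as an abundant enzyme of red cells, and erythroid markers were 21.2 times as high in KO by the means. Whether those markers have a part in the Blvrb value was not tested. Aco1, cytosolic aconitase and iron regulatory protein 1, named here after its values were seen, was at 33.9 ± 1.61 CPM in KO and 41.1 ± 4.45 CPM in WT, a log2 fold change of -0.28 (SE 0.117, edgeR adjusted p = 0.561). Ireb2, iron regulatory protein 2, had 0.10 (-0.17 to 0.37), and Ncoa4, which directs ferritin to lysosomes, -0.23 (-0.54 to 0.07). The lowest was Slc39a8, a zinc and iron importer, at -0.31 (edgeR adjusted p = 0.819). Its value was -0.15 without WT library 3 and -0.71 without KO libraries 2 and 3.

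The spread of the 10 genes was not even across the KO libraries. KO library 2 was above all WT libraries for 7 genes and below them for none, and KO library 3 was above for 6 and below for 1, Tfrc. KO library 1 was above for Hmox1 alone and below for 5 genes, and KO library 4 above for Fth1 alone and below for 4. Some margins were small. In KO library 1, Gpx4 was at 102.6 CPM while the lowest WT library was at 103.5 CPM. Ftl1 was at 133.8 CPM there while the lowest WT library was at 134.1 CPM. The share of all genes that lie outside the WT range in a single KO library was not computed, so these counts are descriptive. KO libraries 2 and 3 also held the highest erythroid sums (3335 and 3505 CPM, against 1112 and 915 CPM in KO libraries 1 and 4) and the highest myeloid sums (368 and 226 CPM, against 97.1 and 54.5 CPM). Eosinophil markers were highest in the same libraries (73.7 and 63.6 CPM, against 45.4 and 21.3 CPM). For 2 further lists the order differed: mast cell and basophil markers were at 234 CPM in KO library 1 and 189 CPM in KO library 3, and NK and gamma-delta T cell markers at 137 and 135 CPM. Whether these cells contributed to the levels of the 10 genes was not tested. When KO libraries 2 and 3 were left out, the median log2 fold change of the 10 was 0.020 in place of 0.093, and none of them was called. The pair was picked after the data were seen and held high values of most of the 10, so a lower median was built into that choice. It is no test of the markers.

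**Figure D3:**
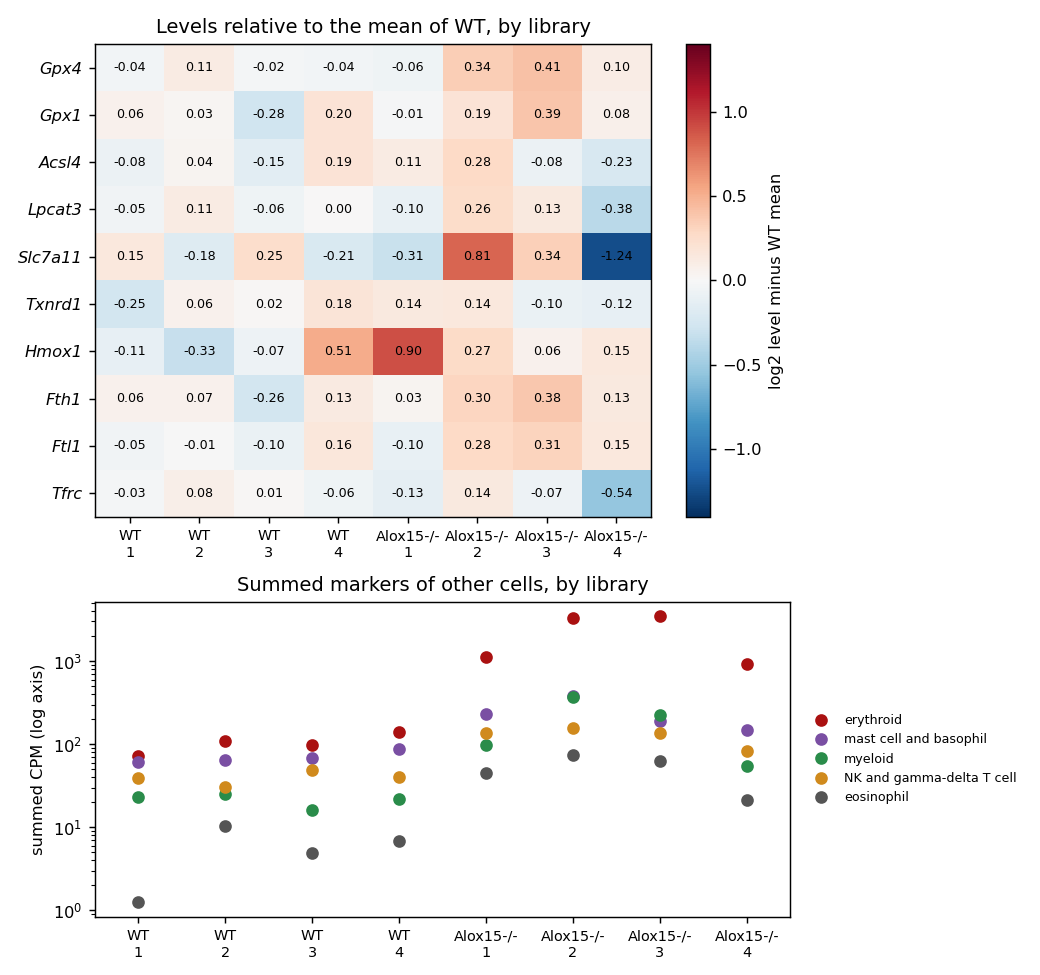
Top, log2 level of each of the 10 genes in each library minus the mean log2 level of the WT libraries (red higher, blue lower). Bottom, summed CPM of the markers of 5 other cell types in the same libraries, on a log axis, where the myeloid point of KO library 2 covers that of mast cells and basophils. KO libraries 2 and 3 carry most of the higher values in the top panel and the highest erythroid sums, 3335 and 3505 CPM, in the bottom one.

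The regulators of these genes gave no call either. Of 25 listed, 21 were tested, 7 above 0 and 14 below, with a median of -0.040. Values ran from -0.32 for Cdkn1a (edgeR adjusted p = 0.838) to 0.13 for Cth (edgeR adjusted p = 0.891). The Cth value was 0.03 without WT library 4 and 0.21 without WT library 2. Before adjustment none of the 21 was below 0.05, where 7.84% of all genes were. Nfe2l2, the NRF2 factor that drives Slc7a11, Txnrd1, Hmox1 and the ferritins under oxidative stress, was at 39.4 ± 4.36 CPM in KO and 38.4 ± 3.65 CPM in WT. Its inhibitor Keap1 had a log2 fold change of -0.18 (-0.40 to 0.05) and Bach1, the repressor of Hmox1, -0.13 (-0.60 to 0.34). The NRF2 target Nqo1 had 0.07 (-0.38 to 0.52).

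Promoters of 9 of the 10 genes, with 16 annotated starts, were searched in RefSeq sequence of GRCm38.p6 from 250 bases before to 50 after each start. The antioxidant response element core, TGACNNNGC on either strand, which NRF2 binds, occurred at 1 of the 16 starts and in 12.4% of 32851 such windows. It is shown for Txnrd1, the one gene that held it, with the motif in capitals as it reads on the plus strand.
Txnrd1, 92 bases before a start: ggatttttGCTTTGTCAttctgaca
This stretch is chr10:82859106-82859130, and on the other strand the motif reads TGACAAAGC. The E-box CACGTG occurred at 0 of the 16 starts and in 7.15% of all windows. These matches describe the letters of a short window only.

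Selenoproteins were then read as a set that Gpx1, Gpx4 and Txnrd1 belong to. Of the 24 genes with an annotated selenocysteine codon 17 were tested, 12 above 0 and 5 below, with a median of 0.098, and 1 passed the threshold, where 48.2% of all genes were above 0 and 1.24% passed. That gene was Selenow (chr7:15917208-15922402, minus strand), a small selenoprotein with a thioredoxin-like fold. It was measured at 92.7, 101, 127 and 108 CPM in KO libraries 1 to 4 and at 79.2, 68.7, 77.4 and 57.8 CPM in WT libraries 1 to 4. Every KO library was above every WT library. The log2 fold change was 0.60 (SE 0.126, 95% interval 0.33 to 0.87, edgeR adjusted p = 0.0252), and the call was lost without KO library 2 (adjusted p = 0.0636), KO library 3 (0.129), KO library 4 (0.0734) or WT library 2 (0.104), while the value stayed between 0.51 and 0.66. Without KO libraries 2 and 3 together it was 0.51 (adjusted p = 0.376). Msrb1, a methionine sulfoxide reductase, was the other of the 17 with an unadjusted p under 0.05 (7.84% of all genes), at 62.6 ± 4.85 CPM in KO and 49.3 ± 5.21 CPM in WT (log2 fold change 0.34, edgeR adjusted p = 0.319). The codons of both are shown as above, for comparison with those of the members.
Selenow: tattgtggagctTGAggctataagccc
Msrb1: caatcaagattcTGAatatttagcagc
The Selenow codon is number 13 of 88, and the bases shown span an exon junction between chr7:15920452-15922256. The Msrb1 codon is number 95 of 116, and the bases shown lie at chr17:24740146-24740172 on the plus strand.

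**Figure D4:**
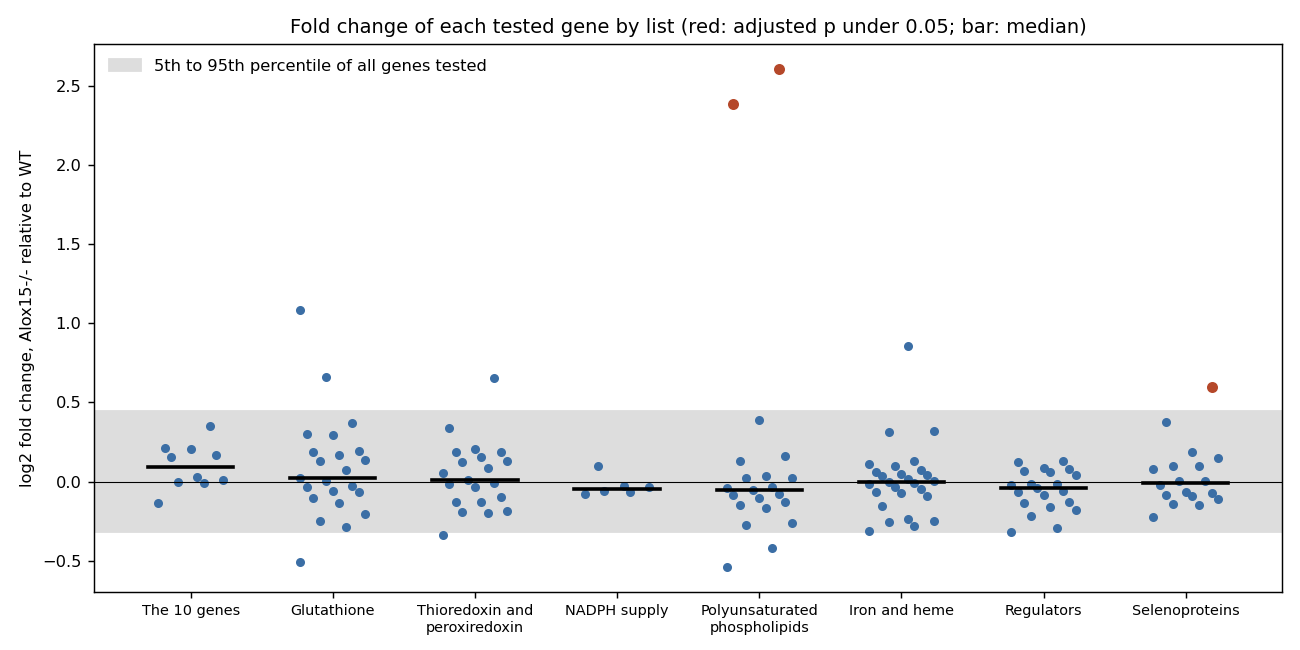
Log2 fold change of every tested gene of the 10 and of the 7 surrounding lists (points; red, adjusted p under 0.05; black bars, medians; grey band, 5th to 95th percentile of all 12700 genes tested). The medians lie close to 0, from -0.053 to 0.093, and the 3 red points are Alox5, Alox5ap and Selenow.

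Over the 7 lists together, 137 of 169 genes were tested, 62 above 0 and 75 below, with a median of -0.015. Of the 137, 3 passed the threshold, all higher in KO, where 1.05% of all genes passed in that direction. Before adjustment, 10 (7.30%) had a p under 0.05 in the edgeR fit, where 7.84% of all genes had one. In the list of selenoproteins and selenium handling, to which Selenow belongs, 18 of 19 were tested, 9 above 0 and 9 below, and the lowest was Lrp8, a receptor that takes up selenoprotein P, at -0.22 (adjusted p = 0.871).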

How the data were processed

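The deposited table holds raw counts per gene symbol, made by the authors by MACE-seq, in which 3′ transcript ends are sequenced, for 4 WT and 4 KO libraries. The labels name a small RNA kit, the methods the MACE-Seq kit. The submitters' processing notes name Bowtie, edgeR and GRCm38 without roles; the handling of copies and strand is not given in the sources used here. Genes at 2 CPM or more in at least 4 libraries were fitted with edgeR 4.0.16 (R 4.3.3; TMM, glmQLFit, glmQLFTest, two-sided), as in the study's filter, and p was adjusted by Benjamini-Hochberg over the 12700 genes with a threshold of 0.05; 95% intervals are the fold change plus or minus the t quantile times its SE. The biological coefficient of variation was 14.5%. Levels were also compared by exact permutation of log2(CPM + 1). DESeq2 1.42.0, limma-voom (limma 3.58.1) and other scalings, filters and left-out libraries were alternatives, and the fit was tested on simulated data. Leaving out KO libraries 2 and 3 together, the search of whole transcripts for hairpins and the use of annotated selenocysteine codons were chosen after seeing the data. Replicates of a group differed by more than sampling noise (chi-square per degree of freedom 4.54 to 16.5). Copies were found by blastn 2.17.0 (90% identity over 300 bases), positions in GENCODE M21. Protein sequences were not used here.

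The members and lists were chosen with earlier results of these data known. Named are the 10 genes, every listed gene past the threshold, the highest and lowest of each list, and Alox15. After values were seen, Gclc, Gclm, Gsr, Slc3a2, Blvra, Ireb2, Ncoa4, Nfe2l2, Keap1, Bach1, Nqo1 and the Treg marker Foxp3 were added for their roles. Aco1, Glrx, Lpcat4 and Msrb1 were added for an unadjusted p under 0.05, and the NK and gamma-delta T cell markers to show which were called.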

Additional observations from a re-analysis of the deposited data

Results flagged for a closer look

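Of 64 groups of 4 libraries examined for a library far from the others, 1 stood out, and chance flags about 1 in 20. Gpx4 in WT library 2 was at 115 CPM while the other WT libraries lay at 104 to 105 CPM, a gap of 0.879 of the range of the group. This library did not lie above KO libraries 2 and 3.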

How the results depend on the processing

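No gene of the 10 passed the threshold in any of 21 alternatives. The number of them with an unadjusted p under 0.05 in the fit was 0 except with upper-quartile scaling (1), without KO library 1 (3), without WT library 4 (2) and without KO libraries 2 and 3 (2). The median over the 10 ran from 0.020 (without KO libraries 2 and 3) to 0.18 (without KO library 4), and those above 0 from 5 to 9. The median of all genes moved by under 0.03 with any scaling.

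The log2 fold changes of 8 named genes changed sign in some alternatives. Slc7a11 was -0.019 by library totals, -0.0011 with filterByExpr, -0.027 without a filter, -0.0040 with at least 10 counts in every library, -0.24 with limma-voom and -0.029 with a replicate block. Txnrd1 was -0.00043 by library totals and -0.011 without a filter, and Lpcat3 0.018 with upper-quartile scaling. Without KO libraries 2 and 3, Acsl4 was -0.050, Slc7a11 -0.79 and Gstm1 -0.43. Leaving out 1 library at a time gave -0.062 to 0.11 for Acsl4, -0.10 to 0.10 for Lpcat3, -0.33 to 0.31 for Slc7a11, -0.065 to 0.075 for Txnrd1, -0.23 to 0.048 for Pgd, -0.50 to 0.030 for Cdkn1a and -0.37 to 0.0062 for Lrp8. The cause was not tested.

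The pathway lists held 3 called genes, 5 without a filter, 1 with at least 10 counts in every library, where Alox5 and Alox5ap were not tested, 1 without KO libraries 2 and 3, and 2 to 4 when a single library was left out. Over all genes 158 were called, 388 without a filter, 100 with at least 10 counts, 60 without KO libraries 2 and 3, and 86 (without KO library 2) to 173 when 1 was left out.

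The labels number the libraries 1 to 4 in both groups but do not say that a number is shared. Deviations of same-numbered libraries correlated at 0.069, 0.165, -0.178 and -0.018, so the numbers were not taken to pair them, and 1 of 4 KO libraries correlated best with its own number. The replicate block gave 0 calls among the 10, 3 in the pathway lists and 146 over all genes. Slc7a11 and Hmox1 had 15 to 72 counts a library, and counting error was not separated there from the spread between libraries. With the shorter promoter window the counts among the 16 starts were the same, 1 and 0, and the shares of all windows 10.9% and 6.40%.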
